A study of Mus musculus with 8 samples.

Results

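The genes described here were the D-type cyclins, the kinases they bind and the inhibitors of those kinases, in naïve CD4 T cells and in effector Th1, Th2 and Th17 cells. The 10 symbols defined the set by name: *Ccnd1*, *Ccnd2*, *Ccnd3*, *Cdk4*, *Cdk6*, *Cdkn1a*, *Cdkn1b*, *Cdkn2a*, *Cdkn2c* and *Cdkn2d*. All 10 were among the 23284 genes of the tables, and 9 of them passed the filter of a mean of at least 1 FPKM over the 8 libraries that left 11198 genes for testing; *Ccnd1* did not. FPKM scales the fragments of a gene to its transcript length and to the mapped fragments of the library, so levels of different genes can be set side by side.

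All cells came from spleens of DO11.10 Tg mice, which carry a transgenic T cell receptor for an ovalbumin peptide, so the results concern T cells of 1 receptor specificity. Naïve cells were the CD44low CD62Lhi fraction of CD4+ cells and were the starting cells of each culture. Th1 cells were cultured for 6 days with IL-2 (30 U/ml), IL-12 (100 U/ml) and an antibody to IL-4 (1 µg/ml). Th2 cells were given IL-2 (30 U/ml), IL-4 (100 U/ml) and an antibody to IFN-γ (10 µg/ml) for the same 6 days. Th17 cells received 10 ng/ml each of IL-6, IL-1β and IL-23 with 10 µg/ml each of antibodies to IL-4 and IFN-γ for 6 days, with no IL-2 listed. The study's methods add that naïve cells were stimulated with peptide on irradiated, T cell-depleted spleen cells, so each effector group differs from naïve cells by stimulation, culture and cytokines together, and these cannot be told apart. Each group had 2 libraries. No label says whether these came from separate animals or cultures or gives the age of the mice, so p-values measure only the spread between these libraries.

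In resting T cells the kinases that D cyclins bind are held inactive. Receptor and cytokine signals raise D cyclins, which activate CDK4 and CDK6. These kinases phosphorylate the retinoblastoma protein and its relatives and so release E2F transcription factors, which drive the genes of DNA synthesis. Inhibitors of the INK4 family bind CDK4 and CDK6 directly, whereas those of the CIP/KIP family bind cyclin-CDK complexes more broadly.

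The libraries held 14463466 to 21058286 fragments, as implied by the confidence bounds that accompany each FPKM value. Summed FPKM of the 4 Th1 markers was 907 to 1048 in Th1 cells and at most 144 elsewhere. Most of the Th1 sum was *Ifng*, at 802 and 614 FPKM. *Cxcr3*, of the same list, was higher in Th17 (11.3 and 11.5 FPKM) than in Th1 libraries (8.01 and 9.35). The sum of the 4 Th2 markers was 384 to 417 in Th2 cells and at most 26.4 elsewhere. That of the 4 Th17 markers was 1395 to 1425 in Th17 cells and at most 3.32 elsewhere. Summed FPKM of the 6 B cell markers, none at 0 in both libraries of a group, was 7.05 to 9.14 in naïve, 2.43 to 3.35 in Th1, 7.15 to 10.1 in Th2 and 12.6 to 13.5 in Th17 cells. Of the macrophage and monocyte list, 5 of 6 markers were in the tables, and their sum was 18.1 to 19.4 in naïve, 13.2 to 14.9 in Th1, 26.3 to 31.3 in Th2 and 24.1 to 25.1 in Th17 cells. The part of such cells in the values below was not tested. In RNA from whole populations, fewer expressing cells and less RNA per cell cannot be told apart.

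Most of the set was higher in effector than in naïve cells. In Th1 cells 7 of the 9 genes tested rose against naïve cells and 1 fell, at an adjusted p under 0.05 in limma. Of all genes tested, 67.3% passed in that comparison and 33.8% rose. In Th2 cells 7 rose and 0 fell at the same adjusted threshold, where 70.5% of all genes passed, 31.8% rising and 38.7% falling. At an unadjusted limma p under 0.05 the number that fell in Th2 cells was also 0. In Th17 cells 8 rose and 1 fell, where 67.3% of all genes passed, 37.5% rising and 29.8% falling. Most genes thus passed against naïve cells. *Cdkn1a* and *Cdkn2a* were under 1 FPKM in naïve cells. The former passed the filter through its effector libraries, and *Cdkn2a* through those of Th1 and Th17. The median log2 difference of the 9 genes was 1.95 in Th1, 1.41 in Th17 and 0.86 in Th2 cells, where that of all genes tested was -0.01, 0.08 and -0.11. Quantile normalization ended the call of *Cdkn2a* in Th2 cells and of *Ccnd2* in Th17 cells.

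**Figure D1:**
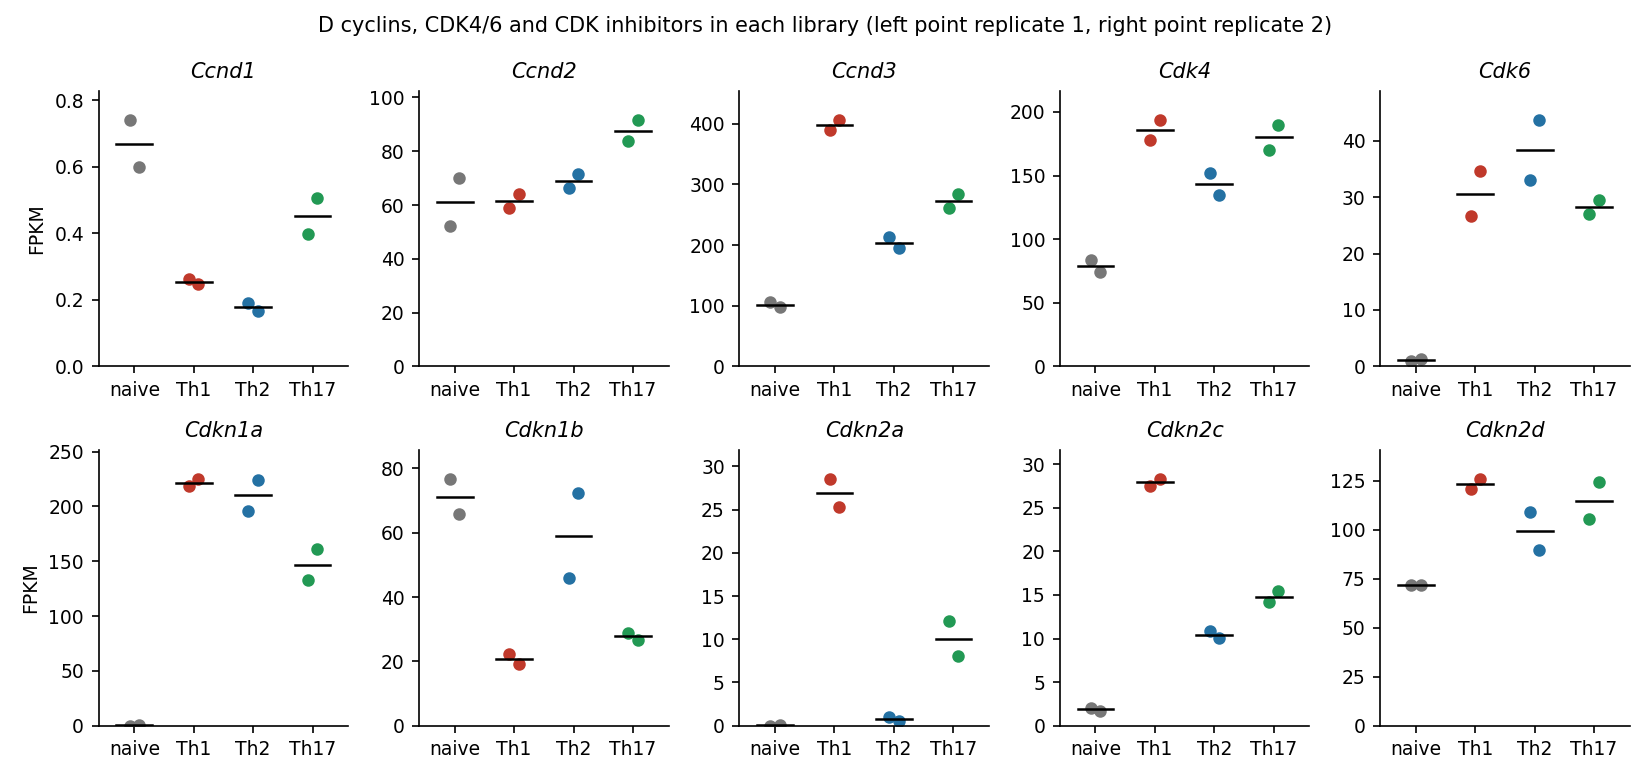
FPKM (vertical axis, linear, from 0, with its own scale in each panel) of the 10 genes in naïve, Th1, Th2 and Th17 cells; points are libraries and horizontal lines the means of 2. *Cdk6*, *Cdkn1a* and *Cdkn2c* sit near the bottom of their panels in naïve cells alone, *Cdkn2a* in naïve and Th2 cells, and *Cdkn1b* is lowest in Th1 and Th17 cells.

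Promoter letters are shown first for the 4 genes to which the values return, from 250 bases before each RefSeq transcript start of build GRCm38.p6. Of the 10 members, 8 had an entry in the promoter table, with 12 starts in all. The stretches were searched on both strands for CACGTG (the E-box of MYC and related factors), TTGGCGC and TTCCCGC (E2F), GTAAACA (FOXO), TGANTCA (AP-1) and TGACGTC (CREB and ATF factors). A match of letters is a description and was not shown here to be a bound site.

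*Cdk4* is shown because its window held CACGTG 4 times, at 172, 118, 98 and 11 bases before the start, whereas 6.02% of 32851 windows held it at all. At least as many were found in 7 windows, or 0.0213%, of 5 genes. The *Cdk6* window held it 1 time, 220 bases before the start. Capitals mark CACGTG in the *Cdk4* stretch at chr10:127063285-127063533 and the *Cdk6* stretch at chr5:3343643-3343731, both on the plus strand.
Cdk4: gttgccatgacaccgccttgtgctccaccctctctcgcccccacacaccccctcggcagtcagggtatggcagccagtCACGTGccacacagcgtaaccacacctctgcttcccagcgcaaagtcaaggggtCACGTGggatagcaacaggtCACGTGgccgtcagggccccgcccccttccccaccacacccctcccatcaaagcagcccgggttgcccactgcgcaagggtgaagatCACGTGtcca
Cdk6: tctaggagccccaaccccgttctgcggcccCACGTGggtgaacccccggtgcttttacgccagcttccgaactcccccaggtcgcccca

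The gene *Cdkn2a* is shown because 2 starts, on the minus strand, make different proteins: the start with the higher coordinate begins the p19Arf transcript and the other the p16Ink4a transcript. The FPKM value of the gene does not separate them. The letters TTCCCGC, in capitals, stood 98 bases before the far start (chr4:89294654-89294869) and were not in the near window (chr4:89282193-89282442), nor was any other motif searched. The *Cdkn2c* start with the higher coordinate also held TTCCCGC, 25 bases before it (chr4:109666764-109666792, minus strand). Of all windows, 3.82% held these letters.
Cdkn2a far start: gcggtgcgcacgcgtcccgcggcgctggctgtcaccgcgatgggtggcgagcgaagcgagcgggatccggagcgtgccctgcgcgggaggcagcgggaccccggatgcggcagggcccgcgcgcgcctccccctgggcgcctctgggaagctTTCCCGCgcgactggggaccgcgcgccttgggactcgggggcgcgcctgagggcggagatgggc
Cdkn2a near start: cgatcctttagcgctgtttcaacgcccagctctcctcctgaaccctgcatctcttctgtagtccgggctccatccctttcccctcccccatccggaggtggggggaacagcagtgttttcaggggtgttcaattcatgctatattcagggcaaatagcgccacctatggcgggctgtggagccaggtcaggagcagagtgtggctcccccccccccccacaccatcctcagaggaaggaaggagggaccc
Cdkn2c far start: ggggcccggccTTCCCGCtcccgcggcgc

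Among the D cyclins, *Ccnd3* carried the rise. Cyclin D3 is the D cyclin that developing T cells are known to need. Its FPKM was 106 and 98.3 in the naïve libraries, 389 and 406 in Th1, 262 and 284 in Th17, and 213 and 195 in Th2. No library of any group overlapped with those of another, in the order Th1, Th17, Th2 and naïve. The mean was 3.90-fold that of naïve cells in Th1, 2.00-fold in Th2 and 2.68-fold in Th17 cells. Log2 differences were 1.95, 0.99 and 1.41 (SE 0.11), with limma adjusted p = 6.07e-06, 0.000142 and 2.58e-05. The gene spans chr17:47505051-47599688 of mm10.

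*Ccnd3* also separated the effector subsets from each other. It was higher in Th1 than in Th2 cells by 0.96 (SE 0.11, limma adjusted p = 0.000513). Its level in Th1 exceeded that in Th17 cells by 0.54 (limma adjusted p = 0.0104), a call lost without Th1 replicate 2 (0.51, adjusted p = 0.0703) or without Th17 replicate 1 (0.48, adjusted p = 0.0636). In Th17 it exceeded that in Th2 cells by 0.42 (limma adjusted p = 0.0182), a call lost with median scaling (0.23, adjusted p = 0.0905) and without Th2 replicate 2 (0.36, adjusted p = 0.0893) or Th17 replicate 2 (0.36, adjusted p = 0.0984).

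*Ccnd2* encodes cyclin D2, which responds early to mitogens in lymphocytes. Its FPKM was 52.2 and 70.1 in naïve, 58.7 and 64.3 in Th1, 83.6 and 91.6 in Th17, and 66.4 and 71.5 in Th2 libraries. The naïve values spanned those of Th1 cells and overlapped with those of Th2, while both Th17 values lay above all others, as did their summed B cell markers. The difference from naïve cells was 0.53 in Th17 (SE 0.15, limma adjusted p = 0.0178). That call was lost with quantile normalization (0.35, adjusted p = 0.0702), with no filter (adjusted p = 0.0546), in a fit of only those groups (adjusted p = 0.0548), without naïve replicate 1 (0.32, adjusted p = 0.0716) and without Th17 replicate 2 (0.46, adjusted p = 0.0908). In Th1 cells the difference was 0.02 with a 95% interval of -0.34 to 0.38, and in Th2 cells it was 0.18 with an interval of -0.17 to 0.54.

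*Ccnd1*, the D cyclin of many epithelial tissues and fibroblasts, stayed under 1 FPKM everywhere. It read 0.741 and 0.599 in naïve, 0.262 and 0.248 in Th1, 0.397 and 0.507 in Th17, and 0.191 and 0.166 in Th2 libraries, on 16.8 to 60.3 implied fragments each. The naïve libraries held the highest values and those of Th2 the lowest, and no groups overlapped. It was not tested in the filtered fit; with no filter, log2 differences from naïve cells of -0.41, -0.50 and -0.20 in Th1, Th2 and Th17 cells had limma adjusted p = 0.00469, 0.00216 and 0.0446. Of the 50-base stretches in its transcripts, 21.6% also lie in *Oraov1* (*Lto1*), on the opposite strand, which read 12.5 to 14.2 FPKM in naïve and 6.47 to 11.6 FPKM in effector libraries. Sources differ on whether the kit kept strand, so reads of such overlaps may have been shared.

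The make-up of the D cyclin pool moved accordingly. Summed FPKM of the 3 genes was 164 ± 7.33 (SD, n = 2) in naïve, 460 ± 15.8 in Th1, 361 ± 21.7 in Th17 and 273 ± 8.58 in Th2 cells. *Ccnd3* made up 62.4% ± 6.01 of it in naïve, 86.6% ± 0.386 in Th1, 75.6% ± 0.115 in Th17 and 74.7% ± 2.11 in Th2 cells. *Ccnd2* gave nearly all the rest, from 13.4% ± 0.391 in Th1 to 37.2% ± 6.09 in naïve cells, and *Ccnd1* at most 0.467% in any library. With 2 libraries a group, an exact test cannot reach 0.05 on such shares, and none was run.

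**Figure D2:**
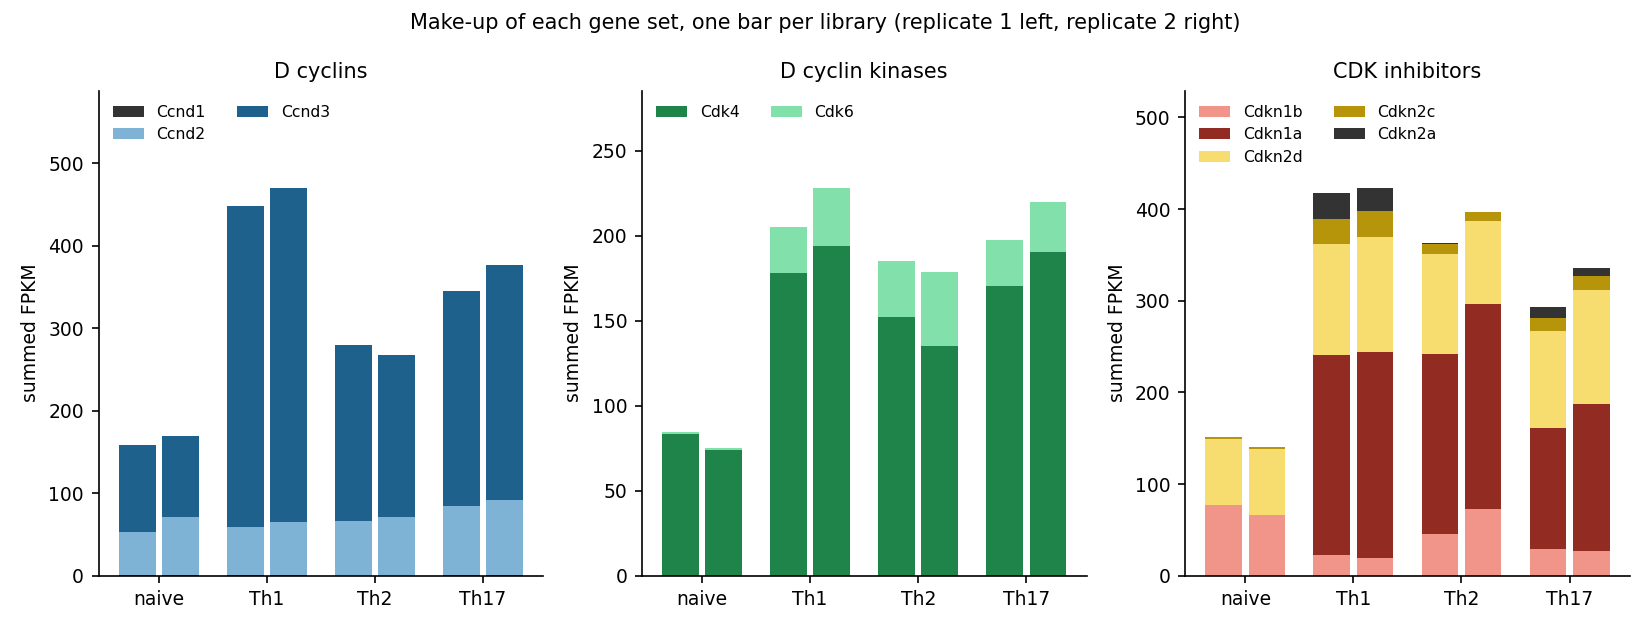
Summed FPKM (vertical axes, from 0) of D cyclins, of their kinases and of the 5 inhibitors, with 1 stacked bar per library; colours mark genes. *Ccnd3* fills most of each D cyclin bar, up to 86.8% in Th1, *Ccnd1* is too small to be seen, and *Cdkn1a* makes up 45.2% to 56.5% of the inhibitor sum in effector libraries.

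Both kinases rose, from very different levels. CDK4 and CDK6 are closely related and share the D cyclins as partners. *Cdk4* read 83.3 and 74.0 FPKM in naïve, 178 and 194 in Th1, 170 and 190 in Th17, and 152 and 135 in Th2 libraries. All effector values lay above both naïve values, and those of Th1 and Th17 cells overlapped. Its differences from naïve cells were 1.23, 0.86 and 1.19 (SE 0.12) in Th1, Th2 and Th17 cells, with limma adjusted p = 0.000107, 0.000559 and 0.000119. *Cdk4* was higher in Th1 than in Th2 cells by 0.37 (limma adjusted p = 0.0424). That call ended with quantile normalization (0.13, adjusted p = 0.387) and median scaling (0.28, adjusted p = 0.0780). It also ended with no filter (adjusted p = 0.0724) and in a fit of only those groups (adjusted p = 0.0606). The removal of any of 6 libraries, those of Th1, Th2 and Th17, ended it too, with differences of 0.29 to 0.46.

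*Cdk4*, at chr10:127063603-127067282, shares 17% of its 50-base stretches with *Tspan31* on the opposite strand. *Tspan31* read 14.1 to 16.1 FPKM in naïve and 47.0 to 54.9 FPKM in effector libraries, differences of 1.73, 1.58 and 1.69 from naïve cells in Th1, Th2 and Th17 (limma adjusted p = 9.16e-06, 1.2e-05 and 9.25e-06). The part of these overlaps in the *Cdk4* values was not tested. *Myc*, whose product binds the letters CACGTG and which was named after its values were seen, read 31.4 to 33.5 FPKM in naïve, 216 to 227 in Th1, 70.8 to 82.6 in Th2 and 145 to 162 in Th17 libraries. The part of *Myc* in the *Cdk4* values was not tested either.

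*Cdk6* was near the filter in naïve cells, at 0.944 and 1.37 FPKM on 49.0 and 71.0 implied fragments. It read 26.7 and 34.6 FPKM in Th1, 27.1 and 29.5 in Th17, and 33.0 and 43.7 in Th2 libraries. Every effector value was far above both naïve values, and the highest stood in Th2. The means were 26.4-fold, 33.1-fold and 24.4-fold that of naïve cells in Th1, Th2 and Th17. Log2 differences of 3.87, 4.18 and 3.77 (SE 0.18) had limma adjusted p = 3.37e-06, 1.89e-06 and 3.3e-06.

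Between subsets *Cdk6* passed in no comparison in the limma fit of group means over all 8 libraries. The difference of Th17 from Th2 cells was -0.41 (95% interval -0.85 to 0.02, limma adjusted p = 0.11), and it passed under some other settings, among them median scaling (-0.59, adjusted p = 0.0373) and quantile normalization (-0.56, adjusted p = 0.0325). As a share of summed kinase FPKM, *Cdk6* was 1.47% ± 0.498 (SD, n = 2) in naïve, 14.1% ± 1.49 in Th1, 13.6% ± 0.207 in Th17 and 21.1% ± 4.66 in Th2 cells, so *Cdk4* remained the larger part in every library.

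The CIP/KIP inhibitors *Cdkn1a* and *Cdkn1b* went in opposite directions in Th1 and Th17 cells. *Cdkn1a* encodes p21, an inhibitor known as a target of p53 that is also raised when T cells are activated. In naïve libraries it was listed at 0.102 and 0.360 FPKM, on 3.22 and 13.0 implied fragments. The effector libraries held 218 and 225 FPKM in Th1, 133 and 161 in Th17, and 196 and 224 in Th2 cells. No other member was so low in naïve cells and so high in all effector subsets.

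Differences of *Cdkn1a* from naïve cells were 7.51, 7.43 and 6.91 (SE 0.15) in Th1, Th2 and Th17, with limma adjusted p = 1.38e-07, 1.33e-07 and 1.75e-07. They ranked 14, 20 and 27 from the highest among the 11198 genes tested. The gene passed the filter through its effector libraries, so its ranks and p-values against naïve cells are descriptions only. With so few naïve fragments the size of these differences depended on the pseudocount, and a pseudocount of 0.1 gave 9.51, 9.43 and 8.90. The difference of Th17 from Th2 cells was -0.52 (limma adjusted p = 0.0274) and that of Th1 from Th17 cells 0.60 (adjusted p = 0.0256). Both calls ended with a pseudocount of 0.1 (adjusted p = 0.255 and 0.263), with no filter (0.0772 and 0.0717) and without Th17 replicate 1 (-0.38, adjusted p = 0.132, and 0.46, adjusted p = 0.131). The former was also lost without Th2 replicate 2 (-0.42, adjusted p = 0.142), and the latter without Th1 replicate 1 (adjusted p = 0.0987) or replicate 2 (adjusted p = 0.115). Th1 and Th2 cells differed by 0.08, with an interval of -0.27 to 0.43.

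*Cdkn1b* encodes p27, the inhibitor long associated with quiescent T cells. It read 76.6 and 65.8 FPKM in naïve, 22.3 and 19.3 in Th1, 28.8 and 26.7 in Th17, and 45.8 and 72.4 in Th2 libraries. Th1 and Th17 values lay below all others, whereas 1 Th2 library was within the naïve range and the other below it. The naïve mean was 3.43-fold that of Th1 and 2.57-fold that of Th17 cells. Differences of *Cdkn1b* from naïve cells were -1.73 in Th1 and -1.33 in Th17 cells (SE 0.21, limma adjusted p = 0.000326 and 0.00118).

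In Th2 cells the difference of *Cdkn1b* from naïve was -0.30 (95% interval -0.80 to 0.20, limma adjusted p = 0.243). It was 0.03 without Th2 replicate 1 (adjusted p = 0.885) and -0.62, past the threshold, without Th2 replicate 2 (adjusted p = 0.0148). Tested directly, the difference from Th2 cells was -1.43 in Th1 (limma adjusted p = 0.00193) and -1.03 in Th17 cells (adjusted p = 0.00841, or 0.057 without Th17 replicate 2). The difference of Th1 from Th17 was -0.40, with an interval of -0.90 to 0.10. *Foxo1*, whose product is known to drive *Cdkn1b*, read 68.6 and 70.8 FPKM in naïve, 20.8 and 22.3 in Th1, 15.7 and 18.1 in Th17, and 41.4 and 43.3 in Th2 libraries, with differences from naïve cells of -1.65, -1.98 and -0.70 (SE 0.10, limma adjusted p = 1.03e-05, 3.74e-06 and 0.000608). The part of *Foxo1* in the *Cdkn1b* values was not tested. No GTAAACA was found in the *Cdkn1b* window. A *Ccnd3* window held these letters 243 bases before the start, as did 3.17% of all windows at any position.

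Within this family the balance of the sum inverted. *Cdkn1b* made up 99.7% ± 0.290 (SD, n = 2) of the summed CIP/KIP FPKM in naïve cells and 8.58% ± 0.970 in Th1, 16.0% ± 2.54 in Th17 and 21.7% ± 3.85 in Th2 cells. *Cdkn1c*, the remaining family member, was listed at 0.0805 to 0.789 FPKM over the 8 libraries and was not tested.

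The 3 INK4 inhibitors of the set rose in each effector subset, by very unequal amounts. *Cdkn2a* makes p16Ink4a, which binds CDK4 and CDK6, and p19Arf, which acts on the MDM2-p53 pathway. In the naïve libraries it was listed at 0 and 0.0679 FPKM. Th1 libraries held 28.5 and 25.3 FPKM, Th17 libraries 12.1 and 8.02, and Th2 libraries 1.04 and 0.595. The groups did not overlap, and Th2 stood close to naïve cells, on 21.8 and 11.9 implied fragments.

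Between subsets *Cdkn2a* was higher in Th1 than in Th2 cells by 3.95 (SE 0.20, limma adjusted p = 1.65e-05), rank 44 from the highest of 11198 genes, and higher in Th17 than in Th2 by 2.59 (adjusted p = 0.000165). The gene passed the filter through its Th1 and Th17 libraries, so its rank and p-values against Th2 or naïve cells are descriptions only. Th1 cells exceeded Th17 cells by 1.36 (limma adjusted p = 0.00312), a 2.68-fold difference in mean. Against naïve cells the differences were 4.75 in Th1 and 3.39 in Th17 (limma adjusted p = 1.89e-06 and 8e-06). In Th2 cells the difference of 0.80 passed (limma adjusted p = 0.00919), and it no longer did with quantile normalization (0.38, adjusted p = 0.223) or without Th2 replicate 1 (0.63, adjusted p = 0.0621). With a pseudocount of 0.1 the differences from naïve cells were 7.70, 2.78 and 6.26 in Th1, Th2 and Th17.

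*Cdkn2b*, which makes p15Ink4b and neighbours *Cdkn2a*, was low by comparison. It read 0.0734 and 0.0369 FPKM in naïve, 5.42 and 6.07 in Th1, 0.574 and 0.592 in Th17, and 0.358 and 0.167 in Th2 libraries. Only Th1 cells exceeded 1 FPKM. It passed the filter through its Th1 libraries alone, so its differences between subsets are not given as tests.

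*Cdkn2c* encodes p18Ink4c, which restrains division of mature T cells. Naïve libraries held 2.08 and 1.65 FPKM, Th1 libraries 27.6 and 28.3, Th2 libraries 10.9 and 10.0, and Th17 libraries 14.1 and 15.5. Replicates lay close together and the groups were apart, in the same order as for *Ccnd3*. Means were 14.9-fold, 5.59-fold and 7.93-fold that of naïve cells in Th1, Th2 and Th17, with log2 differences of 3.34, 2.00 and 2.47 (SE 0.11, limma adjusted p = 5.82e-07, 4.55e-06 and 1.93e-06).

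Among subsets *Cdkn2c* was higher in Th1 than in Th2 cells by 1.34 (limma adjusted p = 0.000117) and than in Th17 by 0.87 (adjusted p = 0.00137). Its difference of Th17 from Th2 was 0.46 (limma adjusted p = 0.0126) and was lost with median scaling (0.29, adjusted p = 0.0557), without Th2 replicate 2 (0.41, adjusted p = 0.0745) and without Th17 replicate 2 (0.40, adjusted p = 0.0856).

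*Cdkn2d* encodes p19Ink4d, an INK4 inhibitor of CDK4 and CDK6. Its values were 72.1 FPKM in both naïve libraries, 121 and 126 in Th1, 105 and 124 in Th17, and 109 and 89.6 in Th2. All effector values were above naïve, and the subsets overlapped apart from Th1 and Th2. Differences from naïve cells were 0.77, 0.45 and 0.66 (SE 0.13) in Th1, Th2 and Th17 (limma adjusted p = 0.00167, 0.0174 and 0.00339). The Th2 call was lost without naïve replicate 1 or 2 (adjusted p = 0.058 and 0.0577) and without Th2 replicate 1 (0.31, adjusted p = 0.0902). No difference between subsets passed. The largest, of Th1 over Th2, was 0.32 with an interval of 0.01 to 0.63 and an adjusted p of 0.089.

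**Figure D3:**
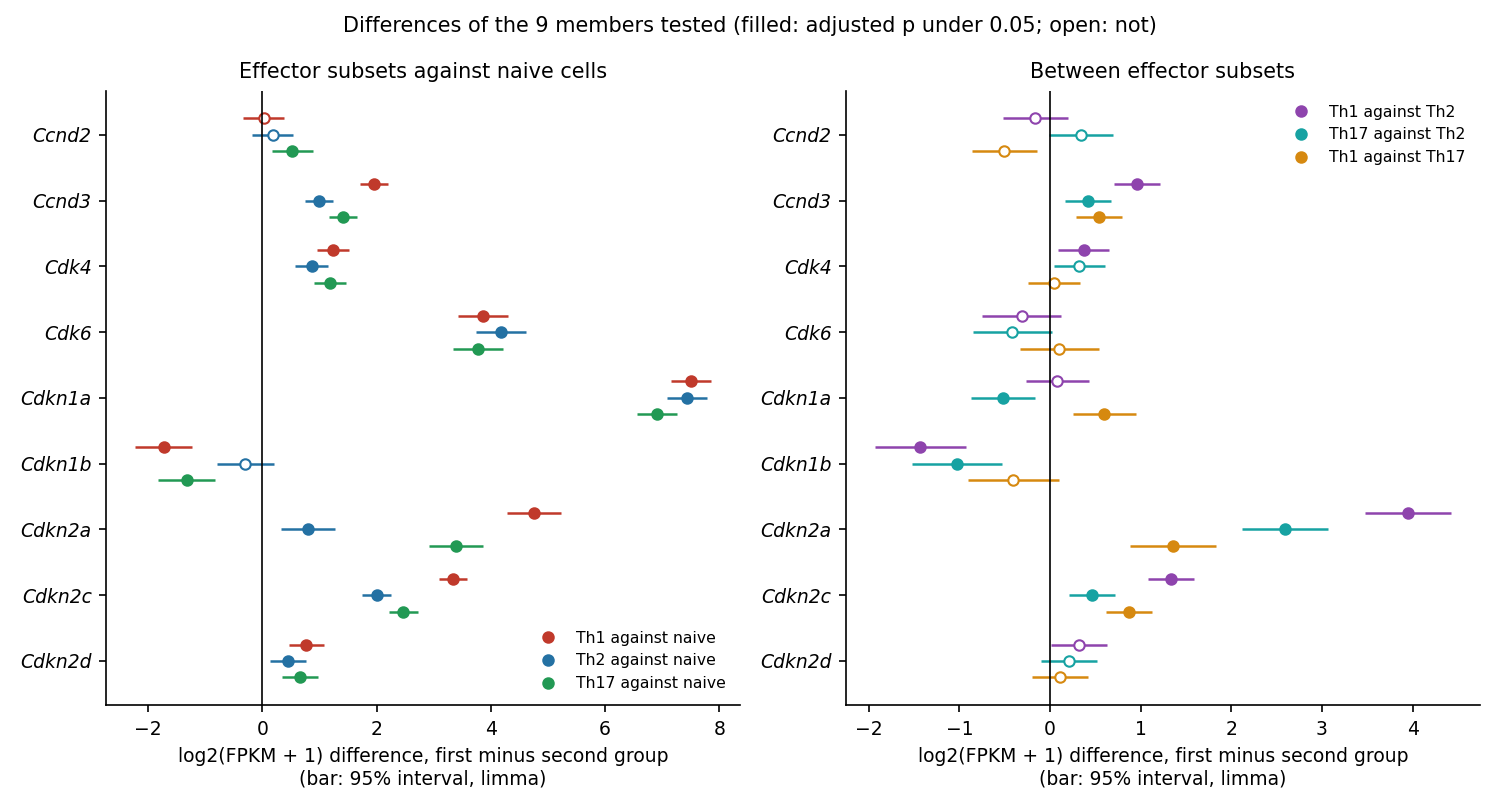
Log2(FPKM + 1) differences of the 9 genes tested (horizontal axes), against naïve cells on the left and between subsets on the right; bars are 95% intervals from limma, and filled points passed an adjusted p of 0.05. *Cdkn1a* lies farthest right against naïve cells at 6.91 to 7.51, *Cdkn1b* has the only filled points left of 0 in that panel, and *Cdkn2a* has the largest differences between subsets, up to 3.95.

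Inhibitor transcripts rose in sum as D cyclins did. Summed FPKM of the 5 inhibitors was 145 ± 7.75 (SD, n = 2) in naïve, 421 ± 3.88 in Th1, 314 ± 29.9 in Th17 and 380 ± 24.2 in Th2 cells. Their composition was nearly all *Cdkn1b* and *Cdkn2d* in naïve cells, at 48.9% and 49.6%. *Cdkn1a* took 52.7% in Th1, 46.6% in Th17 and 55.3% in Th2 cells, followed by *Cdkn2d* at 29.4%, 36.5% and 26.3%. Divided by the D cyclin sum, the inhibitor sum was 0.889 ± 0.087 in naïve, 0.916 ± 0.0231 in Th1, 0.869 ± 0.0307 in Th17 and 1.39 ± 0.132 in Th2 cells. Both Th2 libraries, the higher at 1.49, lay above the other 6, which ran from 0.827 to 0.951. With the kinase sum as divisor Th2 did not stand apart. That ratio was 1.96 and 2.22 in Th2 and 2.04 and 1.86 in Th1 libraries, which overlapped. It was 1.79 and 1.86 in naïve and 1.48 and 1.53 in Th17 libraries. These ratios are of transcripts, and protein levels were not measured here.

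Across the subset comparisons, 5 of the 9 genes differed between Th1 and Th2 cells, with *Ccnd3*, *Cdk4*, *Cdkn2a* and *Cdkn2c* higher in Th1 and *Cdkn1b* lower. Of all genes tested, 44.3% passed there. Between Th17 and Th2 cells 5 differed, against 43.6% of all genes (31.7% higher and 12% lower in Th17), with *Ccnd3*, *Cdkn2a* and *Cdkn2c* higher in Th17 and *Cdkn1a* and *Cdkn1b* lower. That count was 2 without Th2 replicate 2 and 2 without Th17 replicate 2. All genes shifted by a median of 0.18 in this comparison, and relative to it the differences were 0.23 for *Ccnd3* and 0.28 for *Cdkn2c*. Between Th1 and Th17 cells 4 were higher in Th1 and 0 lower by limma (*Ccnd2* was lower at an unadjusted p = 0.0128), where 9.17% of all genes were higher and 25.1% passed in either direction. These were *Ccnd3*, *Cdkn1a*, *Cdkn2a* and *Cdkn2c*. Without Th1 replicate 2 the count was 2, as it was without Th17 replicate 1. The comparisons share groups, so their counts are not independent.

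The rest of the G1-S pathway was taken as a list of 50 genes without the members, of which 48 were tested. Against naïve cells 27 rose and 7 fell in Th1, 24 rose and 11 fell in Th2, and 28 rose and 5 fell in Th17 cells, and 14, 13 and 15 did not pass. The shares that passed, 70.8%, 72.9% and 68.8%, were close to those of all genes. Of all genes tested, 33.8% rose and 33.5% fell in Th1, and 31.8% rose and 38.7% fell in Th2. In Th17, 37.5% of all genes rose and 29.8% fell. Median differences were 0.38, 0.32 and 0.45. By role, all 4 of cyclin E, cyclin A and their kinase (*Ccne1*, *Ccne2*, *Ccna2*, *Cdk2*) rose in each subset. Of the 10 E2F and DP factors 7 rose in Th1 and in Th2, with 1 falling in each, and 8 rose in Th17. MuvB subunits and B-MYB, which form a repressor of cell cycle genes or an activator depending on their partners, were mixed, with 3, 2 and 2 of 6 rising and 1, 3 and 1 falling.

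The 3 list genes with the largest rises were *Ccna2*, *Cks1b* and *E2f8* in every subset. *Ccna2*, the cyclin A of S phase, read 0.598 and 0.745 FPKM in naïve libraries and 46.9 to 71.7 in effector libraries. It rose by 5.43, 4.91 and 4.88 in Th1, Th2 and Th17 cells. *Cks1b*, which helps the SKP2 ligase bind p27 for destruction, rose by 4.39, 3.73 and 4.10, and *E2f8*, a repressor E2F, by 3.80, 3.29 and 3.61. At the other end, *Foxo1* and *Lin52* fell in all 3 subsets, the latter with differences of -0.73, -0.77 and -0.72 in Th1, Th2 and Th17. The remaining genes among the 3 largest falls of a subset were *E2f5* in Th1 (-0.85), *Trp53* and the ligase subunit *Skp1a* in Th2 (-1.01 and -0.76), and the Polycomb gene *Bmi1*, known as a repressor of *Cdkn2a*, in Th17 (-0.61). *Bmi1* also fell in Th1 (-0.72) and did not pass in Th2 (-0.36), and *E2f5* also fell in Th2 (-0.72). Tested between subsets, *Bmi1* passed in no comparison. Its difference was -0.36 in Th1 against Th2 (limma adjusted p = 0.223) and -0.25 in Th17 against Th2 (adjusted p = 0.376). In Th1 against Th17 it was -0.10 (adjusted p = 0.79). *Ezh2*, another Polycomb gene of the list, rose by 1.97, 2.08 and 1.72 in Th1, Th2 and Th17. The part of these genes in the *Cdkn2a* values was not tested. *Trp53* read 71.1 and 76.4 FPKM in naïve, 52.5 and 68.3 in Th1, 55.8 and 68.4 in Th17, and 35.3 and 36.7 in Th2 libraries.

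Targets downstream of the members were taken from a list of 18 E2F targets of DNA replication, and all 18 rose in each subset. Of all genes tested, 33.8% rose in Th1, 31.8% in Th2 and 37.5% in Th17. Their median differences were 2.38 in Th1, 2.27 in Th17 and 1.83 in Th2 cells. *Rrm2*, a subunit of ribonucleotide reductase, rose by 5.83 in Th1, 5.33 in Th17 and 4.65 in Th2 cells and read 132 to 140 FPKM in Th1, 49.4 to 70.9 in Th2 and 94.1 to 96.3 in Th17 libraries against 1.37 and 1.42 in naïve. *Tk1*, thymidine kinase, rose by 4.52 in Th1, and *Uhrf1*, a factor in maintenance of DNA methylation, by 4.59 in Th17. Between Th1 and Th2 cells 13 of the 18 were higher in Th1, and the other 5 did not pass. Of all genes tested, 27.4% were higher and 16.9% lower in Th1 there, with a median difference of 0.11.

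The p53 targets, to which *Cdkn1a* belongs, were mixed. Of 19 tested in a list of 20 without *Cdkn1a*, 12 rose and 5 fell in Th1, 10 rose and 5 fell in Th2, and 12 rose and 5 fell in Th17 cells, with medians of 0.99, 0.76 and 0.94. The shares of all genes that rose were 33.8%, 31.8% and 37.5%, and those that fell 33.5%, 38.7% and 29.8%. *Phlda3*, an inhibitor of AKT signalling, rose by 4.11, 4.02 and 4.64 in that order. *Pmaip1*, which encodes the pro-apoptotic NOXA, rose by 4.79 in Th1, and *Gtse1*, a regulator of p53 in dividing cells, by 4.09 in Th1, 3.72 in Th2 and 3.92 in Th17. Among those that fell in all 3 subsets, *Btg2* differed by -2.86, -2.38 and -3.10 in Th1, Th2 and Th17. In the same order *Gadd45a* differed by -1.49, -1.20 and -0.72, and *Fas* by -0.54, -2.77 and -0.93.

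**Figure D4:**
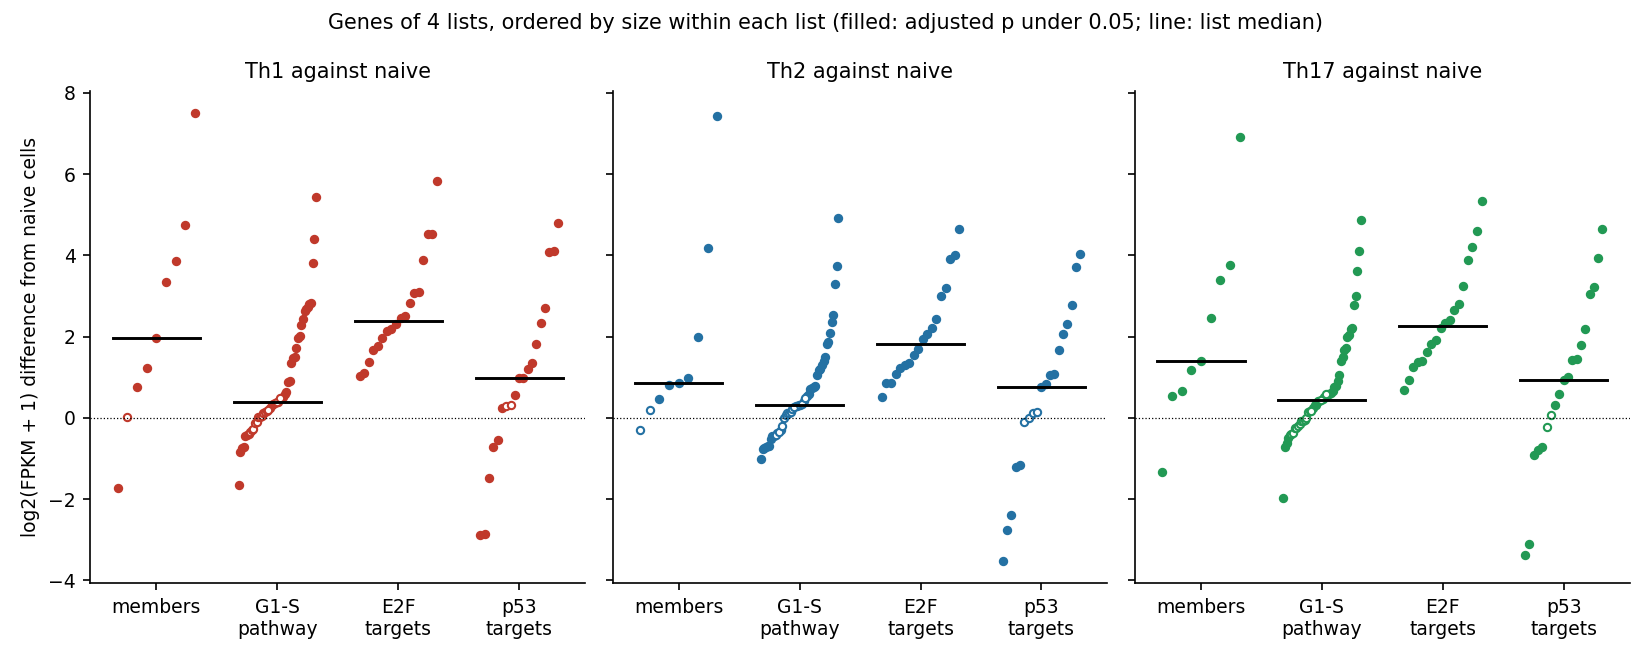
Log2(FPKM + 1) differences from naïve cells (vertical axis) of the 9 members tested, the 48 G1-S pathway genes, the 18 E2F targets and the 19 p53 targets, in panels for Th1, Th2 and Th17; each point is a gene, filled where it passed, and black lines are list medians. All 18 E2F targets lie above 0 in each panel, and the pathway medians lie at 0.32 to 0.45.

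For each member tested, the gene whose log2(FPKM + 1) over the 8 libraries was most like it was sought among all genes. These correlations rest on 8 libraries in 4 groups and mostly on the difference from naïve cells, so they are descriptions. For *Cdkn1a* these were *Stil* and *Cdk1* (Pearson r = 1.00 and 0.999), for *Ccnd3* they were *Pld2* and *Ccne1* (0.998 and 0.998), and for *Cdk4* *Gmds* and *Snrpa* (0.997 and 0.997). *Litaf* was among those for *Cdk6* (0.998), and for *Cdkn2c* they were *Spp1* and *Ckb* (0.997 and 0.997). *Cdkn2a* was followed by *Fut4* and *Tnfsf11* (0.994 and 0.992), *Cdkn2d* by *Rbmxl1* and *Gmppb* (0.989 and 0.987), and *Cdkn1b* by *Ccdc107* and *Scp2* (0.981 and 0.978). *Ccnd2* had the least similar partners, *Senp1* and *Xrcc1* (0.967 and 0.963).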

How the data were processed

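RNA from naïve CD4 T cells and from Th1, Th2 and Th17 cells (2 libraries each) was sequenced by the study as 50-base reads. The authors aligned reads to mm10 with Bowtie 0.12.8 and TopHat 1.3.2 and calculated the deposited FPKM values per gene, with confidence bounds, with Cufflinks 2.0.2; the gene annotation is not given in the sources used here. The labels name a stranded library kit and the study's methods an unstranded one. Samples were grouped by their titles.

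Rows of 1 symbol were summed. Genes whose FPKM averaged 1 or more (11198 of 23284) were tested on log2(FPKM + 1) with limma 3.58.1 in R 4.3.3 in 1 fit of 4 group means over all 8 libraries, with a mean-variance trend, two-sided, and Benjamini-Hochberg adjustment over all genes tested. Differences are on that scale, which understates changes of low genes. FPKM holds no counts; fragments were implied from the width of the deposited bounds (as a Poisson interval) and cover counting error only. On simulated data 95% to 95.5% of 200 genes changed by 2 on the log2 scale were recovered, and 3.05% to 5.94% of calls were false. Only comparisons with naïve cells and changes of that size were simulated, so recovery of smaller differences between subsets was not tested. Overlapping genes came from GENCODE M21 and promoters from RefSeq (GRCm38.p6). Alternatives were other pseudocounts, filters, scalings and fits, a replicate block and leaving out each library.

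Genes named were the 10 members, the 3 pathway genes with the largest passing rises and falls against naïve cells, *Cdkn1c* and *Cdkn2b*, the first 2 of each target list, and the 2 genes most like each member, of which 1 is not reported here. *Myc*, *Tspan31*, *Oraov1*, *Ezh2*, *Btg2*, *Gadd45a*, *Fas* and *Sesn1* were added after their values were seen. The members and lists were chosen with earlier results of these data known.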

Additional observations from a re-analysis of the deposited data

Results flagged for a closer look

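Some members differed between effector subsets in how far they moved from naïve cells, by the limma test of the subsets against each other, which share their naïve libraries. Between Th1 and Th2 cells the log2 difference was 0.96 for *Ccnd3*, 0.37 for *Cdk4*, 3.95 for *Cdkn2a* and 1.34 for *Cdkn2c*, all higher in Th1, and -1.43 for *Cdkn1b*. Between Th1 and Th17 cells *Cdkn1a* differed by 0.60, higher in Th1. The calls of *Cdk4* and *Cdkn1a* ended under several alternatives and when single libraries were left out, and the other 4 kept their side of the threshold under every alternative run. Of these, *Cdkn2a* passed the filter through its Th1 and Th17 libraries, with a mean of 0.817 FPKM in Th2.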

How the results depend on the processing

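Of 540 member values recomputed under 10 alternatives, 514 kept direction and side of the threshold, 14 lost and 8 gained a call, and 4 changed sign. Those 4 had not passed: *Ccnd2* in Th1 against naïve (-0.13), *Cdk4* in Th1 against Th17 (-0.018) and *Cdkn1a* in Th1 against Th2 (-0.089) with quantile normalization, and the last also with median scaling (-0.016). Leaving out 1 library in turn (432 values) ended 24 calls, made 7 and turned 9 signs, none of a value that had passed. Their ranges over these fits were -0.19 to 0.23 for *Ccnd2* in Th1 and -0.026 to 0.39 in Th2 against naïve, -0.62 to 0.028 for *Cdkn1b* in Th2 against naïve, -0.019 to 0.18 for *Cdkn1a* in Th1 against Th2 and, in Th1 against Th17, -0.033 to 0.12 for *Cdk4*, -0.078 to 0.28 for *Cdk6* and -0.0094 to 0.23 for *Cdkn2d*. The cause was not tested. With 1 library left out, members called numbered 2 to 6 between Th17 and Th2 and 2 to 5 between Th1 and Th17. Scaling moved the median of all genes, from 0.08 to -0.12 in Th17 against naïve (quantile) and from 0.18 to 0.02 in Th17 against Th2 (median scaling), where higher calls were 72.6% of calls and then 53.3%. Deviations from the group mean correlated between same-numbered libraries at 0.138 to 0.294 over 6 pairs of groups; each comparison has 2 pairs and no label says what a number marks. With a replicate block 42 of 54 member tests passed instead of 38, adding *Cdk6* in Th1 against Th2 (adjusted p = 0.0273), *Ccnd2* (0.0301) and *Cdk6* (0.0104) in Th17 against Th2 and *Ccnd2* in Th1 against Th17 (0.0121). Depth limits *Ccnd1* throughout and *Cdkn1a* and *Cdkn2a* in naïve cells.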

Other observations

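*Cd8b1* read 52.8 and 90.5 FPKM in naïve libraries, which the labels give as CD4+ cells, and 8.77 to 12.9 FPKM in effector libraries, while *Cd8a* was at most 2.94 FPKM in any library. *Mpo* and *Elane*, granule genes of the neutrophil lineage, were listed at 2.46 to 4.89 and 2.59 to 3.71 FPKM in the replicate 1 library of each effector subset, and at 0 to 0.106 and 0 FPKM in replicate 2. *Bysl*, which overlaps *Ccnd3* on the opposite strand over 3.3% of its 50-base stretches, differed from naïve cells by -0.53, -1.30 and -0.42 in Th1, Th2 and Th17, where *Ccnd3* rose.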
